A study of Gossypium hirsutum with 9 samples.

Results

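XinWX ovules were followed across flowering, from 1 day before anthesis (-1 DPA, days post anthesis) to 1 day after it (1 DPA). XinWX is a lintless-fuzzless mutant of Upland cotton (Gossypium hirsutum), and each array also carried XinFLM, its near-isogenic linted-fuzzless line, at the same stage. The members were the XinWX channels of 6 of the 9 arrays of the series, 3 of 1 DPA and 3 of -1 DPA, while the 3 arrays of 0 DPA were used for the course in between. Each sample was RNA of ovules, with any fibers they bore, from field-grown plants. By electron microscopy the study saw no protrusions on XinWX ovules at -1, 0 or 1 DPA, and saw them on XinFLM ovules at 0 and 1 DPA. XinWX RNA carried the dye Cy3 on replicates 1 and 3 of every stage and Cy5 on replicate 2, the dye swap. The methods give a pair of biological replicates and a dye swap, whereas the deposited design gives 3 biological replicates that include the swap, so it is not settled whether replicate 2 shared its RNA with another array. P-values below measure the spread between these arrays, which may be partly technical. For changes within a line, the spread of a probe was pooled over both lines and all stages. The standard error (SE) of a change is therefore the same in XinWX and XinFLM. In RNA of whole ovules, fewer cells of a type and less RNA per cell cannot be told apart.

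Cotton fibers are single cells that grow out of the ovule epidermis around the day of flowering. Lint is made by cells that start at about anthesis, and fuzz by cells that start later, so a lintless-fuzzless line carries neither. Jasmonate is a plant hormone made from fatty acids by lipoxygenase (LOX), allene oxide synthase (AOS), allene oxide cyclase and 12-oxophytodienoate reductase 3 (OPR3), and enzymes of the GH3 family join hormones of the jasmonate and auxin classes to amino acids.

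The array held 29184 probe spots of 29183 different cDNA probes, and 21229 probes had at least 400 units after background subtraction in 1 or both channels on 2 or more arrays at both stages. Only 18 probes could be given a gene name, all from the study's text and primer list, so markers of fiber and ovule cell types could not be checked beyond those. The XinWX median signal was 991.75, 900 and 1664 units on the arrays of 1 DPA, against 1577, 1568.5 and 922.25 units on the arrays of -1 DPA. The 1 DPA array with 1664 units in XinWX, replicate 3, had 694 units in XinFLM, the widest gap between channels of any array. After normalization, XinWX values of pairs of arrays differed with an SD of 0.723 to 0.948 (log2) at 1 DPA, against 0.433 to 0.733 at -1 DPA. Replicates 1 and 2 were the closest pair at every stage.

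XinWX had 496 called probes out of 21229 (2.34%) when 1 DPA was set against -1 DPA, where a call in limma on single channels required a change of at least 2-fold and a false discovery rate (FDR) below 0.05. Of these, 214 were higher at 1 DPA (1.01%) and 282 were lower (1.33%). At an unadjusted p under 0.05 there were 3975 probes. The median log2 change was 1.35 for the probes called higher and -1.37 for those called lower, and 15 higher and 24 lower probes passed 4-fold. Over all probes tested, the median size of the log2 change was 0.349. In the values that made the calls, both dye layouts gave the same direction for every called probe: the higher ones had a median change of 1.27 on the Cy3 arrays and 1.51 on the Cy5 array, and the lower ones -1.24 and -1.66. XinWX values of the stages did not overlap for 207 of the 214 higher probes and 276 of the 282 lower ones. The calls were made on these same values, so this is no separate support for them. Over all probes tested, 1846 (8.70%) lay wholly higher at 1 DPA and 2187 (10.3%) wholly lower.

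The size of this list depended on single arrays. Without replicate 1 of -1 DPA 42 probes were called, and without replicate 2 or 3 of -1 DPA 71 and 216. Leaving out replicate 1, 2 or 3 of 0 DPA, which is outside the contrast but shares the estimate of the spread, gave 173, 175 and 353. Without replicate 1 or 2 of 1 DPA 198 and 96 were called, whereas without replicate 3 of 1 DPA there were 2506, of which 472 were also called with all 9 arrays. Averaging replicate 1 with the dye swap, as 1 sample per stage, left 0 probes called in limma (1781 at an unadjusted p under 0.05), and averaging replicate 3 with the swap gave 1411. With the XinWX channel alone, 3 arrays against 3, limma called 0 (2656 unadjusted). Only 32 probes, 18 higher and 14 lower, were called in each of the 9 fits that left out 1 array. An exact permutation test of 3 against 3 arrays cannot go below p = 0.1 for a single probe, so no such test was used.

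**Figure D1:**
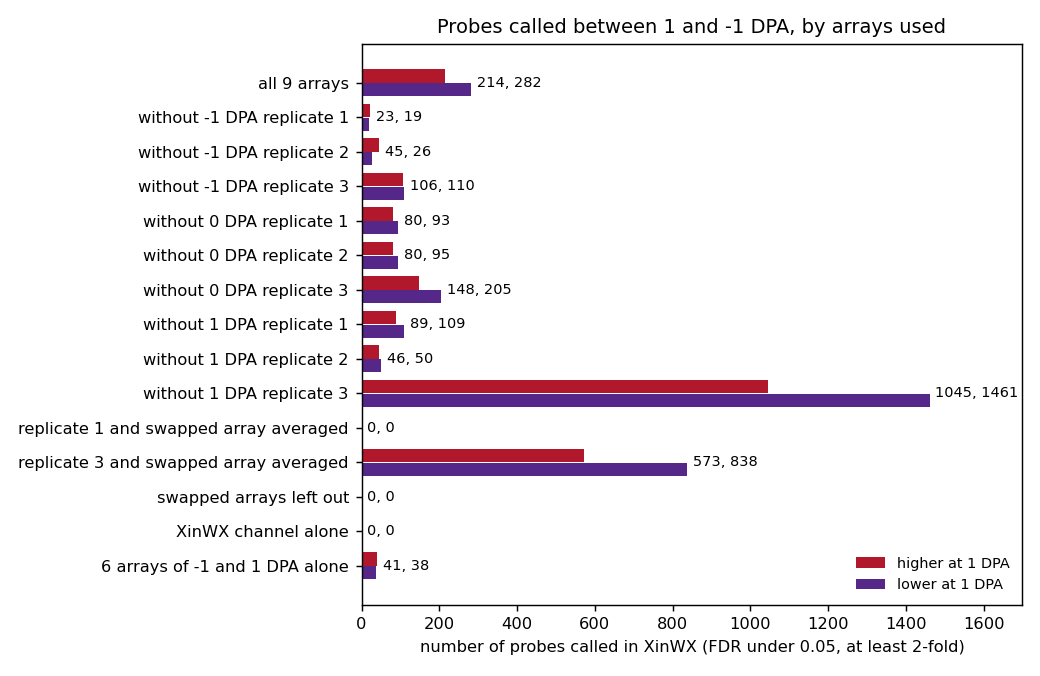
Number of XinWX probes called higher (red) and lower (purple) at 1 DPA than at -1 DPA, with all 9 arrays, with each array left out, and with other sets of arrays. The counts run between 0 and 1461 in 1 direction, and the highest pair is that without replicate 3 of 1 DPA.

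The calls were also uneven over the surface of the array. Spots were printed in 48 blocks, and the median XinWX log2 change of a block, over its 324 to 487 tested probes, lay between -0.48 and 0.33. XinFLM, hybridized to the same spots, had block medians between -0.41 and 0.39. In blocks 9 to 16, 72 probes were called higher and 6 lower, whereas block 41 had 2 higher and 28 lower. When the average intensity of each block was centred on each array, an alternative chosen after seeing the data, block medians lay between -0.14 and 0.05, and 244 probes were called higher and 284 lower. Of the original calls, 158 higher and 192 lower ones were kept, 350 of 496, and none turned round. All 32 probes called in each leave-one-out fit were among the 350. The part of place on the array in the other calls was not tested further.

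**Figure D2:**
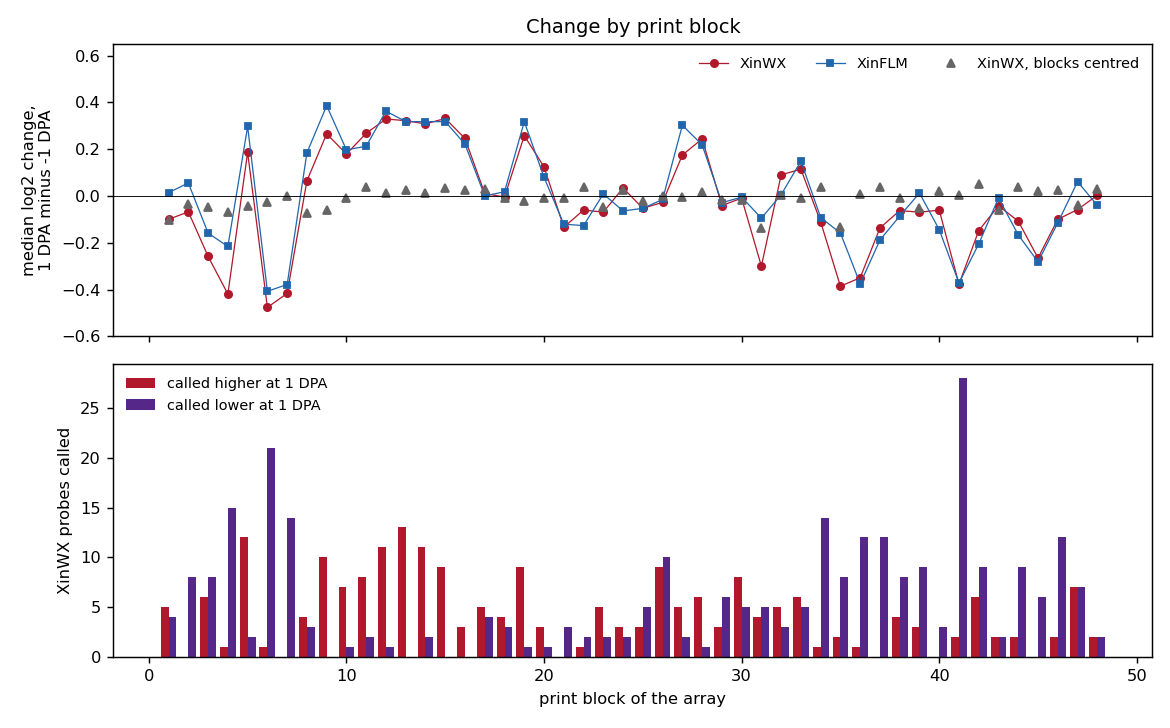
Upper panel, median log2 change (1 DPA minus -1 DPA) of the tested probes in each of the 48 print blocks for XinWX, XinFLM and XinWX after centring. Lower panel, XinWX probes called higher and lower per block; blocks 9 to 16 hold 72 higher and 6 lower calls.

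The largest changes with XinWX signal of at least 400 units on all 6 arrays and no overlap of the stages are shown for 2 probes per direction, none of them paired with a gene in the sources used here. Probe 28K_206_B11 had XinWX log2 values of 13.47, 12.37 and 12.35 at 1 DPA, against 10.44, 10.42 and 10.71 at -1 DPA. Its log2 change was 2.21 ± 0.33 (SE, FDR 0.0039 in limma). Probe 28K_206_C03 had 13.69, 13.02 and 11.33 at 1 DPA, against 10.94, 9.81 and 10.49 at -1 DPA, with a log2 change of 2.27 ± 0.53 (FDR 0.0327). The 1 DPA arrays of this probe span more than 2 log2 units, and it was called in only 2 of the 9 leave-one-out fits, whereas 28K_206_B11 was called in all 9.

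Among the probes that fell, 28K_294_D08 had XinWX log2 values of 9.63, 9.76 and 9.70 at 1 DPA, against 12.12, 12.27 and 11.73 at -1 DPA. The log2 change was -2.34 ± 0.34 (FDR 0.0038), and the values at 0 DPA, 9.96, 9.66 and 9.93, were already near those of 1 DPA. In XinFLM the same probe had 11.41, 11.24 and 11.25 at 0 DPA, and by 1 DPA it had fallen further than in XinWX (log2 change -3.93, FDR 1.02e-06 in limma). XinFLM signal was then 207.5, 105 and 282.5 units, under the limit of 400, so that fall may be larger still. Probe 28K_157_E12 had XinWX values of 11.33, 10.15 and 12.73 at 1 DPA, against 14.35, 14.36 and 14.20 at -1 DPA (log2 change -2.90 ± 0.45, FDR 0.0040). Both were called in every leave-one-out fit, and all 4 probes kept their calls after the blocks were centred. None of the 4 was called when replicate 1 and the swap were averaged. With all 9 arrays, all 4 were also called in XinFLM in the same direction. The XinFLM log2 change was 3.50 for 28K_206_B11, 2.55 for 28K_206_C03 and -1.99 for 28K_157_E12. The course of 28K_157_E12 differed between the lines. Its XinFLM mean was 11.05 at -1 DPA, 12.44 at 0 DPA and 9.07 at 1 DPA, against 14.30, 12.68 and 11.40 in XinWX.

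**Figure D3:**
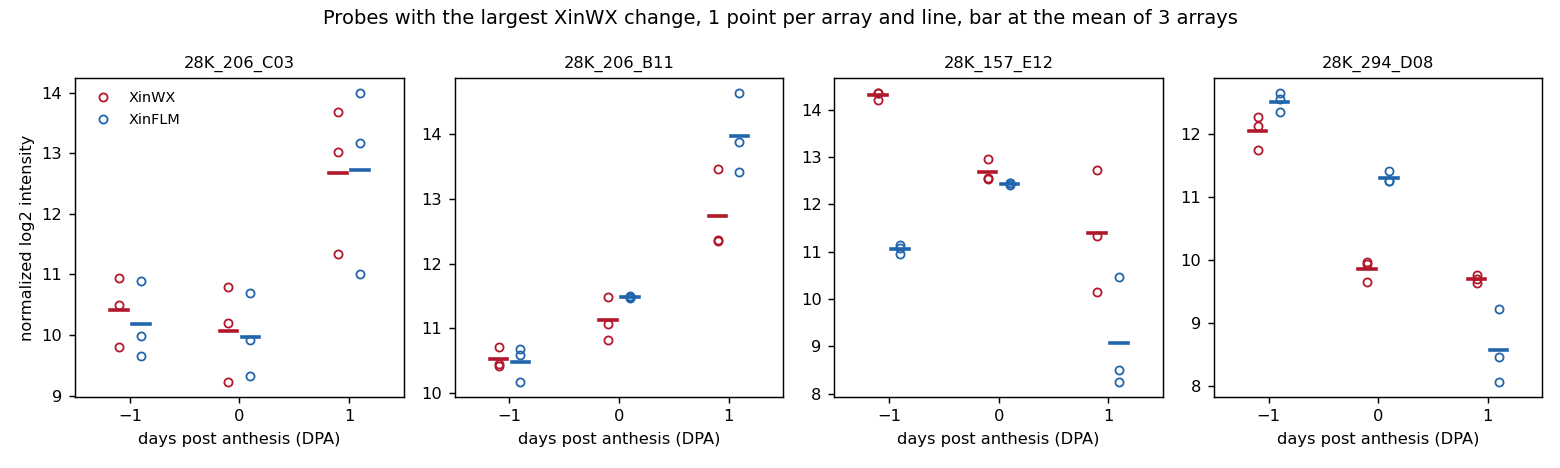
Normalized log2 intensity of the 4 probes in XinWX (red) and XinFLM (blue) at -1, 0 and 1 DPA, 1 point per array, with bars at the mean of 3 arrays. 28K_294_D08 is at 9.66 to 9.96 in XinWX at 0 DPA and at 11.24 to 11.41 in XinFLM.

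At 0 DPA, on arrays outside the contrast, 173 of the 214 higher probes lay between the XinWX means of -1 and 1 DPA, 31 lay beyond the mean of 1 DPA and 10 on the far side of -1 DPA. Of the 282 lower probes, 17 lay beyond 1 DPA, 32 on the far side of -1 DPA and the rest between. The higher probes had made a median of 0.636 of their whole change by 0 DPA, and the lower ones 0.367. By array of 0 DPA the median place was 0.649, 0.628 and 0.615 for the higher probes, and 0.374, 0.329 and 0.427 for the lower ones. Each place was set against the same means of -1 and 1 DPA, which made the calls. The arrays of 0 DPA are thus not independent of one another here. The median step of the higher probes was 0.86 (log2) between -1 and 0 DPA and 0.50 between 0 and 1 DPA. For the lower ones it was -0.50 and then -0.86. By these medians both lists lay nearer their higher end level at 0 DPA, and the reason was not tested. In XinFLM the same higher probes had median steps of 0.54 and 0.78, and the same lower probes -0.18 and -1.17.

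XinFLM, fitted on the same arrays, had 2199 calls between 1 and -1 DPA (10.4%), 1050 higher (4.95%) and 1149 lower (5.41%). Over all probes tested, the median size of the log2 change was 0.417 in XinFLM, against 0.349 in XinWX. The XinFLM count was not refitted with arrays left out, whereas the XinWX count reached 2506 without replicate 3 of 1 DPA. How far the counts differ between the lines is therefore uncertain. Both lines share their arrays, so similar changes are not independent. The probes called higher in XinWX had a median XinFLM change of 1.40, and 159 of them were called in XinFLM too, 74.3% of the XinWX list and 15.1% of the XinFLM list. The probes called lower had a median XinFLM change of -1.32, and 175 were called in XinFLM (62.1% and 15.2%), while 11 were called in the opposite direction.

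The difference of change between the lines was tested on the log2 ratios within arrays, in which anything shared by both channels of a spot cancels. It passed an FDR of 0.05 for 2337 of 21229 probes, 1017 (4.79%) with the larger value in XinWX and 1320 (6.22%) with the smaller. Of the probes called in XinWX it passed for 25 of 214 higher and 107 of 282 lower ones. In 71 of those 107 the fall was deeper in XinWX, and in 35 of these 71 the XinFLM change was above 0. The lists were chosen on the XinWX change, which is part of the difference, so these counts and this split are not a separate result. The count over all probes stayed between 1541 and 2546 when 1 array was left out, and was 959 when replicate 1 and the swap were averaged.

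**Figure D4:**
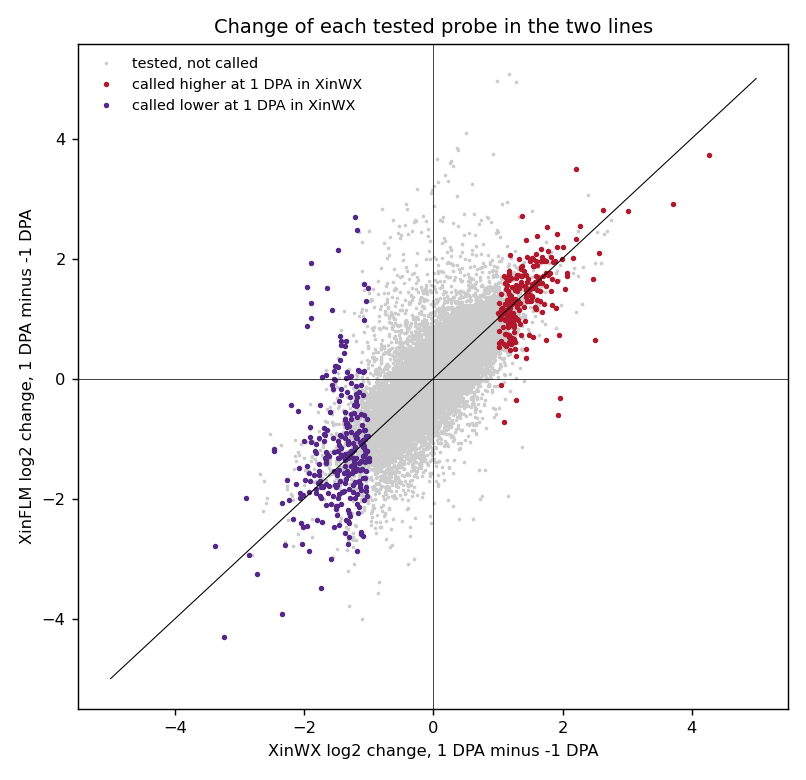
Log2 change (1 DPA minus -1 DPA) in XinWX on the x axis and XinFLM on the y axis, 1 point per tested probe, with equality as the diagonal. Probes called higher (red) and lower (purple) in XinWX lie along the diagonal, with a group of lower ones above 0 in XinFLM, 11 of them called.

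Of the 18 probes with a gene name, 1 was called in XinWX (2.34% over all probes tested) and 4 in XinFLM (10.4%). The difference of change passed for 8, 3 with the higher value in XinWX (4.79% over all probes) and 5 with the lower (6.22%), and 3 of the 8 lost it in 1 or more leave-one-out fits. The study picked its jasmonate and GH3 probes, and some of the others, as differing between the lines on these same arrays. The share of named probes that passed is therefore not a result about them. XinWX values of the stages did not overlap for 9 of the 18, 4 higher (8.70% over all probes) and 5 lower at 1 DPA (10.3%). The called probe, 28K_150_B07, is listed as a lipoxygenase, the enzyme class that opens jasmonate synthesis, but its primers nearly match those of the OPR3 probe. Its XinWX log2 values were 9.34, 9.64 and 8.99 at 1 DPA, against 11.34, 11.36 and 11.27 at -1 DPA, with 10.34, 10.29 and 9.57 at 0 DPA. All 1 DPA arrays lay below all 0 DPA arrays except for 1 value, 9.64 against 9.57, and the 0 DPA arrays lay below those of -1 DPA. The log2 change was -2.0 ± 0.39 (FDR 0.0128 in limma) and -1.62 (FDR 0.0175) after the blocks were centred. It was no longer called without replicate 1 of -1 DPA (FDR 0.082) or replicate 2 of -1 DPA (FDR 0.065), nor with replicate 1 and the swap averaged (FDR 0.221). In XinFLM the change was -1.04 ± 0.39 (FDR 0.0838). The difference of change, -0.96 ± 0.28 (FDR 0.041), failed in 6 of the 9 leave-one-out fits.

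The second lipoxygenase probe, 28K_275_B02, had XinWX values of 12.24, 13.56 and 11.40 at 1 DPA, against 12.92, 12.61 and 11.27 at -1 DPA, which overlap across more than 1 log2 unit. Its XinWX change was 0.13 ± 0.47 (FDR 0.912). In XinFLM the change was -1.48 ± 0.47 (FDR 0.0437), and the difference of change, 1.61 ± 0.26 (FDR 0.00087), passed in all 9 leave-one-out fits.

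Both probes of allene oxide synthase, which turns the lipoxygenase product into allene oxide, had higher XinWX values at 1 DPA without overlap, but neither passed the test. Probe 28K_069_H08 had 12.14, 12.27 and 12.58 at 1 DPA, against 11.85, 11.39 and 11.90 at -1 DPA (log2 change 0.61 ± 0.34, FDR 0.337). Probe 28K_156_D09 had 13.01, 13.26 and 12.67 at 1 DPA, against 12.43, 12.52 and 11.15 at -1 DPA (0.95 ± 0.41, FDR 0.216). Their XinWX values at 0 DPA, on a level with those of 1 DPA, were 12.44, 12.48 and 12.50 for 28K_069_H08 and 12.88, 13.55 and 13.15 for 28K_156_D09. The XinFLM changes were -0.78 ± 0.34 and -0.51 ± 0.41, and the difference of change was 1.39 ± 0.24 (FDR 0.00165) and 1.46 ± 0.26 (FDR 0.00206), and it passed in all 15 alternatives for each probe.

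The probe of OPR3, which reduces the cyclic jasmonate precursor, was 28K_299_E12. It had XinWX values of 10.20, 9.48 and 9.83 at 1 DPA, against 10.95, 10.36 and 11.40 at -1 DPA, lower without overlap but not past the test (log2 change -1.07 ± 0.41, FDR 0.162). In XinFLM it fell by 1.70 ± 0.41 (FDR 0.0092), and the difference of change, 0.63 ± 0.27, did not pass (FDR 0.155). XinFLM signal at 1 DPA was 265.5, 195 and 247 units, under the limit of 400. The XinFLM fall and the difference may therefore be larger than these values. The primers that the study lists for this probe and for lipoxygenase 28K_150_B07 are almost the same, and are shown because the list alone does not separate these named probes. Capitals mark the 17 bases that each pair shares. No other probes in the list of 18 share a run over 8 bases between primers.
28K_150_B07 forward: CTCGGACTACTTACCATttc
28K_299_E12 forward: gCTCGGACTACTTACCAT
28K_150_B07 reverse: TCACCTGCTCAGATGTAa
28K_299_E12 reverse: cTCACCTGCTCAGATGTA

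Of the GH3 probes, 28K_236_A10 had XinWX values of 9.70, 10.19 and 9.82 at 1 DPA, against 11.25, 11.01 and 10.75 at -1 DPA, again lower without overlap. Its log2 change of -1.10 ± 0.34 missed the threshold (FDR 0.0857) and passed it without replicate 3 of 1 DPA (FDR 0.0198). XinFLM had -0.92 ± 0.34, and the difference of change was -0.18 ± 0.25 (FDR 0.702). XinFLM signal of this probe at 1 DPA was 391, 155 and 376 units, under the limit of 400. The XinFLM fall may therefore be larger, and the size and direction of the difference are uncertain. The other GH3 probe, 28K_086_B03, had a XinWX change of -0.15 ± 0.29 (FDR 0.824).

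The lines differed most, among the named probes, in lipid transfer protein (LTP, 28K_179_F11), a class of small secreted lipid-binding proteins abundant in young fibers. XinWX had 11.68, 12.24 and 11.19 at 1 DPA, against 12.08, 11.83 and 12.66 at -1 DPA, which overlap (log2 change -0.48 ± 0.32, FDR 0.43). XinFLM had 14.34, 15.12 and 13.85 at 1 DPA, against 12.64, 12.35 and 13.18 at -1 DPA, a rise of 1.71 ± 0.32 (FDR 0.0014). The difference of change was -2.19 ± 0.18 (FDR 1.74e-06). Benzoquinone reductase (28K_233_A03), of a class that reduces quinones, had XinWX values of 10.60, 10.23 and 10.55 at 1 DPA, against 11.06, 11.23 and 11.02 at -1 DPA. They were lower without overlap, but the change of -0.64 ± 0.28 did not pass (FDR 0.22). XinFLM rose by 1.35 ± 0.28 (FDR 0.0032), and the difference of change was -2.0 ± 0.20 (FDR 1e-05). Both differences passed in all 15 alternatives.

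**Figure D5:**
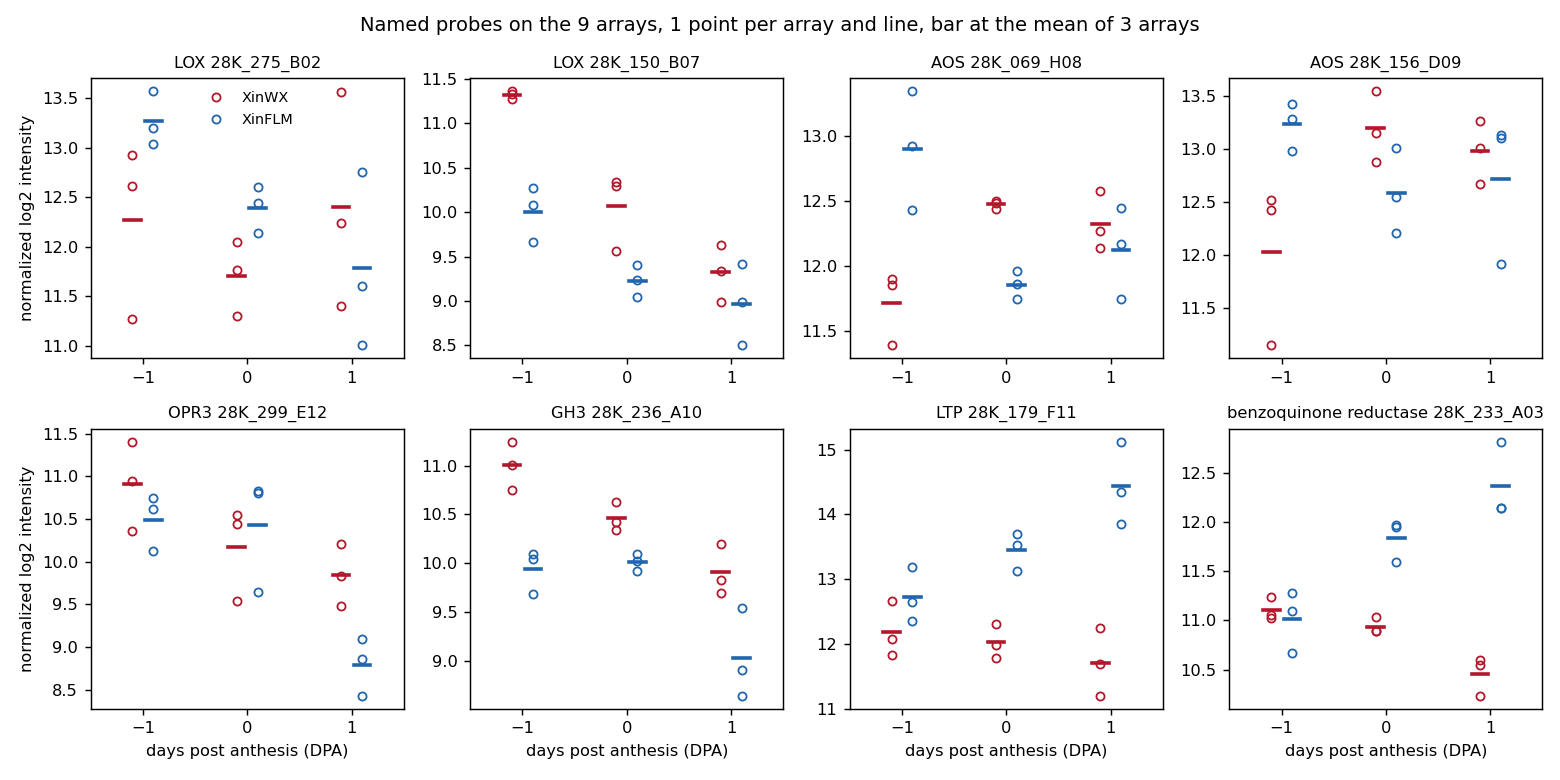
Normalized log2 intensity of 8 named probes in XinWX (red) and XinFLM (blue) at -1, 0 and 1 DPA, 1 point per array and line, with bars at the mean of 3 arrays. LTP in XinWX lies between 11.19 and 12.66, while in XinFLM it reaches 15.12 at 1 DPA.

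None of the remaining named probes passed the test in XinWX with all 9 arrays. The receptor kinase BAK1 (28K_164_D07), a partner of the brassinosteroid receptor, had a change of -0.76 ± 0.40 (FDR 0.305), lower without overlap. Auxin response factor ARF7 (28K_256_D11) had 0.03 ± 0.31 and 28K_167_D03, for the cystathionine gamma-synthase that leads towards methionine, -0.39 ± 0.38. The sterol demethylase (28K_096_A10) had -0.08 ± 0.28 in XinWX, and its difference of change from XinFLM was -0.73 ± 0.19 (FDR 0.0205). That difference failed without replicate 1 or 3 of -1 DPA (FDR 0.0892 and 0.0594), without replicate 1 of 1 DPA (FDR 0.081) and with replicate 1 and the swap averaged (FDR 0.126). The ABC transporter (28K_057_D05) had 0.29 ± 0.24 and a difference of -0.66 ± 0.16 (FDR 0.0164), which failed without replicate 2 of -1 DPA (FDR 0.054) or of 1 DPA (FDR 0.0516) and with the same averaging (FDR 0.161). The study's 4 comparison genes had XinWX changes of 0.63 ± 0.36 for 28K_001_D11, 0.35 ± 0.24 for 28K_141_D12, -0.13 ± 0.28 for 28K_118_C05 and -0.82 ± 0.34 for 28K_206_B07. The last, a ribosomal protein L30 probe, passed without replicate 3 of 1 DPA (-1.21, FDR 0.0204). The primer list gives the sterol demethylase and cystathionine gamma-synthase probes with the prefix 29k, and they were matched here by plate and well.

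Signal in XinWX passed 400 units on all 3 arrays of 1 DPA and on none of -1 DPA for 57 probes, and the other way round for 73. In XinFLM these counts were 49 and 567. The limit is in units before normalization, and in XinFLM overall brightness moved with the stage: its median signal was 988.5, 807.5 and 694 units at 1 DPA, against 1506.75, 1447 and 930 units at -1 DPA. In XinWX the median signal was also lower at 1 DPA on replicates 1 and 2, but higher on replicate 3 (1664 against 922.25 units). With 2 of 3 arrays in place of all 3, the XinWX counts were 868 and 2121. The part of brightness in the counts of either line was not tested. Of the 57 XinWX probes, 34 had reached 400 units on 1 or more arrays of 0 DPA, and of the 73 probes 48 had. Most of these faint probes were not among those tested, since 12 of the 57 and 2 of the 73 were. The 12 could be tested because XinFLM had at least 400 units on 2 or more arrays of -1 DPA. The XinWX values that chose them also made the calls, so the count called is not a separate result. Of the 12, 3 were called higher (1.01% over all probes tested), with XinWX at least 2.39-fold, 2.51-fold and 4.12-fold higher at 1 DPA. Each bound sets the 1 DPA mean against the lowest normalized value of probes with 400 units on the -1 DPA arrays, or the probe's own where that was higher.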

How the data were processed

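Spot and background intensity were the scanner output the authors deposited for each array, not normalized. The authors' deposited log2 ratios (limma 3.4.5 in R 2.12.2 per the labels) served as an alternative, and they correlated with the ratios computed here at r = 0.95 to 0.999. Here, normexp (offset 50), loess within arrays (span 0.3, 4 iterations, spots under 400 units and control spots at weight 0) and Aquantile across arrays were applied, then separate-channel fits in limma 3.58.1 (R 4.3.3) with Benjamini-Hochberg adjustment over 21229 probes. The fit held the tested probes. The design did not settle this, and it was chosen after 12 fit sets had been tried and their counts seen (202 to 670 probes called). The difference of change was fitted on within-array ratios. The scripts were tested on simulated data. Named probes were 18 with a gene name plus the 2 largest per direction. The members and lists were chosen with earlier results of these data known. The number of arrays limits the precision. Alternatives covered background, filters, normalization, dye, replicates and place on the array.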

Additional observations from a re-analysis of the deposited data

Results flagged for a closer look

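The change from -1 to 1 DPA differed between XinWX and XinFLM, by the test of the difference itself on ratios within arrays, for 2337 probes, 11 of them named here. A positive value means that the signed log2 change was higher in XinWX than in XinFLM, whichever was the larger in size. The difference was 1.61 for lipoxygenase 28K_275_B02, 1.39 and 1.46 for the allene oxide synthase probes 28K_069_H08 and 28K_156_D09, and 1.59 for 28K_294_D08. It was -2.19 for lipid transfer protein 28K_179_F11, -2.0 for benzoquinone reductase 28K_233_A03, -1.29 for 28K_206_B11, -0.96 for lipoxygenase 28K_150_B07, -0.92 for 28K_157_E12, -0.73 for the sterol demethylase 28K_096_A10 and -0.66 for the ABC transporter 28K_057_D05. XinFLM signal at 1 DPA was under 400 units on all arrays for 28K_150_B07 and 28K_294_D08, and on some for 28K_157_E12. The size of the difference is therefore uncertain for these probes. Not all of the 11 differences held in the 15 alternatives. 28K_150_B07 passed in 5 of them, 28K_157_E12 in 10 (-0.39 with FDR 0.311 on the authors' ratios, -0.59 with FDR 0.105 after plain background subtraction), 28K_096_A10 in 11 and 28K_057_D05 in 12, while the other 7 probes passed in all 15. Groups of 3 arrays are too small for a test of single outlying arrays.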

How the results depend on the processing

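With 1 array left out, the counts of XinWX probes ran between 23 and 1045 for higher and between 19 and 1461 for lower, the median place at 0 DPA between 0.598 and 0.679 for higher and between 0.315 and 0.422 for lower probes, and the count of differences of change between 1541 and 2546. Averaging replicate 1 with the swap, leaving out the swapped arrays, and the XinWX channel alone each called 0 higher and 0 lower probes in limma (1781, 1815 and 2656 at an unadjusted p under 0.05), and the first gave 959 differences of change. Averaging replicate 3 with the swap gave 573 higher and 838 lower. The 6 arrays of the contrast alone gave 41 and 38, and a dye term 118 and 163. No normalization between arrays gave 23 higher and 344 lower, so the balance of directions depended on that step. Which probes entered the fit was chosen after their counts were seen: of 12 fit sets, that with all probes and the correlation of the tested ones was the smallest, with 95 higher and 107 lower, and that with all probes moderated over the tested ones the largest, with 280 and 390. Centring the blocks moved the place of the higher probes at 0 DPA to 0.654. A limit of 800 units gave 86 probes detected at 1 DPA only, and 2 of 3 arrays gave 868 at 1 DPA only and 2121 at -1 DPA only. The causes were not tested.

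With the replicate number as a block, 374 higher and 551 lower probes were called. Deviations of arrays with the same number correlated at -0.051, 0.063 and 0.075, and not every array was closest to its own number, so the numbers were not taken to pair the arrays. The block called GH3 28K_236_A10 (FDR 0.0483), as did both summaries by mean spot signal, which were added after seeing the data (FDR 0.0267 and 0.0293).

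Small changes turned direction. In XinWX, 28K_275_B02 went to -0.33 with no normalization between arrays, -0.0715 with replicate 3 averaged and -0.29 without the swapped arrays (leave-one-out -0.46 to 0.63). ARF7 28K_256_D11 went to -0.41, -0.12 with replicate 1 averaged and -0.16 with blocks centred (-0.33 to 0.38). The sterol demethylase 28K_096_A10 went to 0.0691 and 0.0427 under the same averaging and centring (-0.27 to 0.12), and 28K_057_D05 and 28K_141_D12 to -0.12 and -0.0527 with no normalization between arrays. Leave-one-out values of 28K_086_B03 ran from -0.47 to 0.0864. Differences of change turned for 28K_236_A10 (0.0357 with the authors' ratios, leave-one-out -0.52 to 0.11), 28K_164_D07 (-0.0374 with replicate 1 averaged, -0.0697 to 0.45) and 28K_167_D03 (-0.31 scaled, -0.0239 with the authors' ratios, -0.0365 with replicate 1 averaged, -0.22 to 0.33). They also turned in leave-one-out fits for 28K_001_D11 (-0.0549 to 0.37), 28K_118_C05 (-0.0574 to 0.32) and 28K_206_B07 (-0.13 to 0.0658). None of these passed the test in any fit where it turned.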
